A study of Anas platyrhynchos with 11 samples.

Results

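The genes described here are the vesicle release genes of duck Meissner corpuscles and bill skin. They are the SNARE proteins (SNAP, syntaxin and VAMP families) that fuse vesicles with membranes, the synaptotagmins that sense calcium, and the proteins that dock, prime and recycle vesicles. The members were taken by gene name from the deposited table, and 70 of its 16823 genes matched. Of these, 68 had enough counts to be tested, while CPLX3 and CPLX4 did not pass the filter on low counts. In exocytosis, a SNARE on the vesicle zips together with SNAREs on the target membrane and pulls the membranes into contact. Complexins and synaptotagmins hold or trigger that step at the rise of calcium, and RIM, UNC13 and ELKS proteins prepare vesicles at the active zone of a nerve terminal. Neurons and neuroendocrine cells such as Merkel cells use dedicated forms of these proteins, and most other cells use broadly expressed forms for constitutive traffic.

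RNA was measured in 5 libraries of Meissner corpuscles and 6 libraries of bill skin of the duck Anas platyrhynchos. A Meissner corpuscle is a touch end organ in which lamellar cells enclose a sensory nerve ending. Each corpuscle library pooled 2 to 10 corpuscles drawn into a pipette, and the skin libraries came from neighbouring skin cells that held none. The labels give no genotype, treatment or age for either group. The libraries came from 3 skin isolations that the labels do not tie to libraries, so the p-values speak for the spread among these libraries, which may be technical. RNA from corpuscles ranged from 63 to 323 pg/µl and had RNA integrity values between 6.1 and 8.0. A single-cell and low-input kit (NEBNext) served for the corpuscle libraries and a Kapa messenger RNA kit for the skin libraries, so the effects of tissue and of kit cannot be told apart. The use of strand in counting is not given in the sources used here, so reads of overlapping or antisense genes cannot be told apart from those of a member.

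Total counts ran from 5766279 to 11886808 in corpuscles and from 13263776 to 20925841 in skin. Corpuscle 4 had the lowest total and stood apart from the other corpuscles on the second principal component, with a score of -116 against scores from -20.6 to 47.1. Of the markers of Schwann cells, the lineage of lamellar cells, the transcription factor SOX10 averaged 241 ± 129 CPM (± SD, counts scaled to a common library size) over corpuscles and 152 ± 20.5 CPM over skin. S100B is listed at 0 in every library, and of the 6 Schwann markers tested 3 fell and the others did not pass. Endothelial markers summed to 29.5 to 95.9 CPM in corpuscles and 939 to 1288 CPM in skin, with 5 of 6 lower. Of the 3 keratinocyte markers in the table all 3 were lower, with sums of 14.8 to 40.9 CPM in corpuscles and 127 to 413 CPM in skin. Fibroblast markers summed to 13649 to 44825 CPM in corpuscles and 48890 to 79662 CPM in skin, with 5 of 7 lower. Markers of Merkel cells summed to 14528 to 79447 CPM in corpuscles and 1225 to 2493 CPM in skin, with 8 of 9 higher; CHGB, a granin of dense-core vesicles, made up 81.9% to 95.9% of that sum in corpuscles. Sensory axon markers summed to 301 to 1576 CPM in corpuscles and 107 to 138 CPM in skin, with 7 of 12 higher. UCHL1 made up 65.6% to 79.2% of the axon sum in corpuscles, NEFM, NEFH, TUBB3 and NTRK2 did not pass, and PRPH fell. These are bulk libraries, in which more or fewer cells of a type and more or less RNA per cell cannot be told apart, and the part of these cell types in the results below, rises and falls alike, was not tested.

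Vesicle release genes were more often higher than lower in corpuscles. Among the 68 tested, 36 rose, 9 fell and 23 did not pass (edgeR's quasi-likelihood test, Benjamini-Hochberg adjusted p of 0.05 over all 14638 genes tested). Of all genes tested 56.4% were called, 33% higher and 23.5% lower. Of the members tested 52.9% were called higher and 13.2% lower. The median log2 fold change, corpuscle minus skin, was 1.08 over the members tested and 0.18 over all genes tested. By more than 2-fold, 34 members rose (50% of those tested, against 29.9% of all genes) and 8 fell (11.8%, against 20% of all genes). In 22 members every corpuscle library was above every skin library (32.4%, against 22.3% of all genes). In 8 every one was below (11.8%, against 19% of all genes). Without corpuscles 4 and 5 the counts were 35 higher and 9 lower. The rises were large in SNAP25, SV2B and SV2A, and the falls in VAMP3 and SYT6, as the plot of fold changes by role shows. Per kilobase of gene length (FPKM), SNAP25 and SV2B were at 32.7 and 32.9 in corpuscles. SV2A was at 0.993 there, with 6 reads over all skin libraries. SV2A, SYT2, SYT8, SYT10 and SYTL5 had too few reads in skin to pass the filter on low counts without corpuscle libraries. The direction of their calls was thus largely fixed beforehand. They are counted among the 36, as such genes are among all genes tested.

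**Figure D1:**
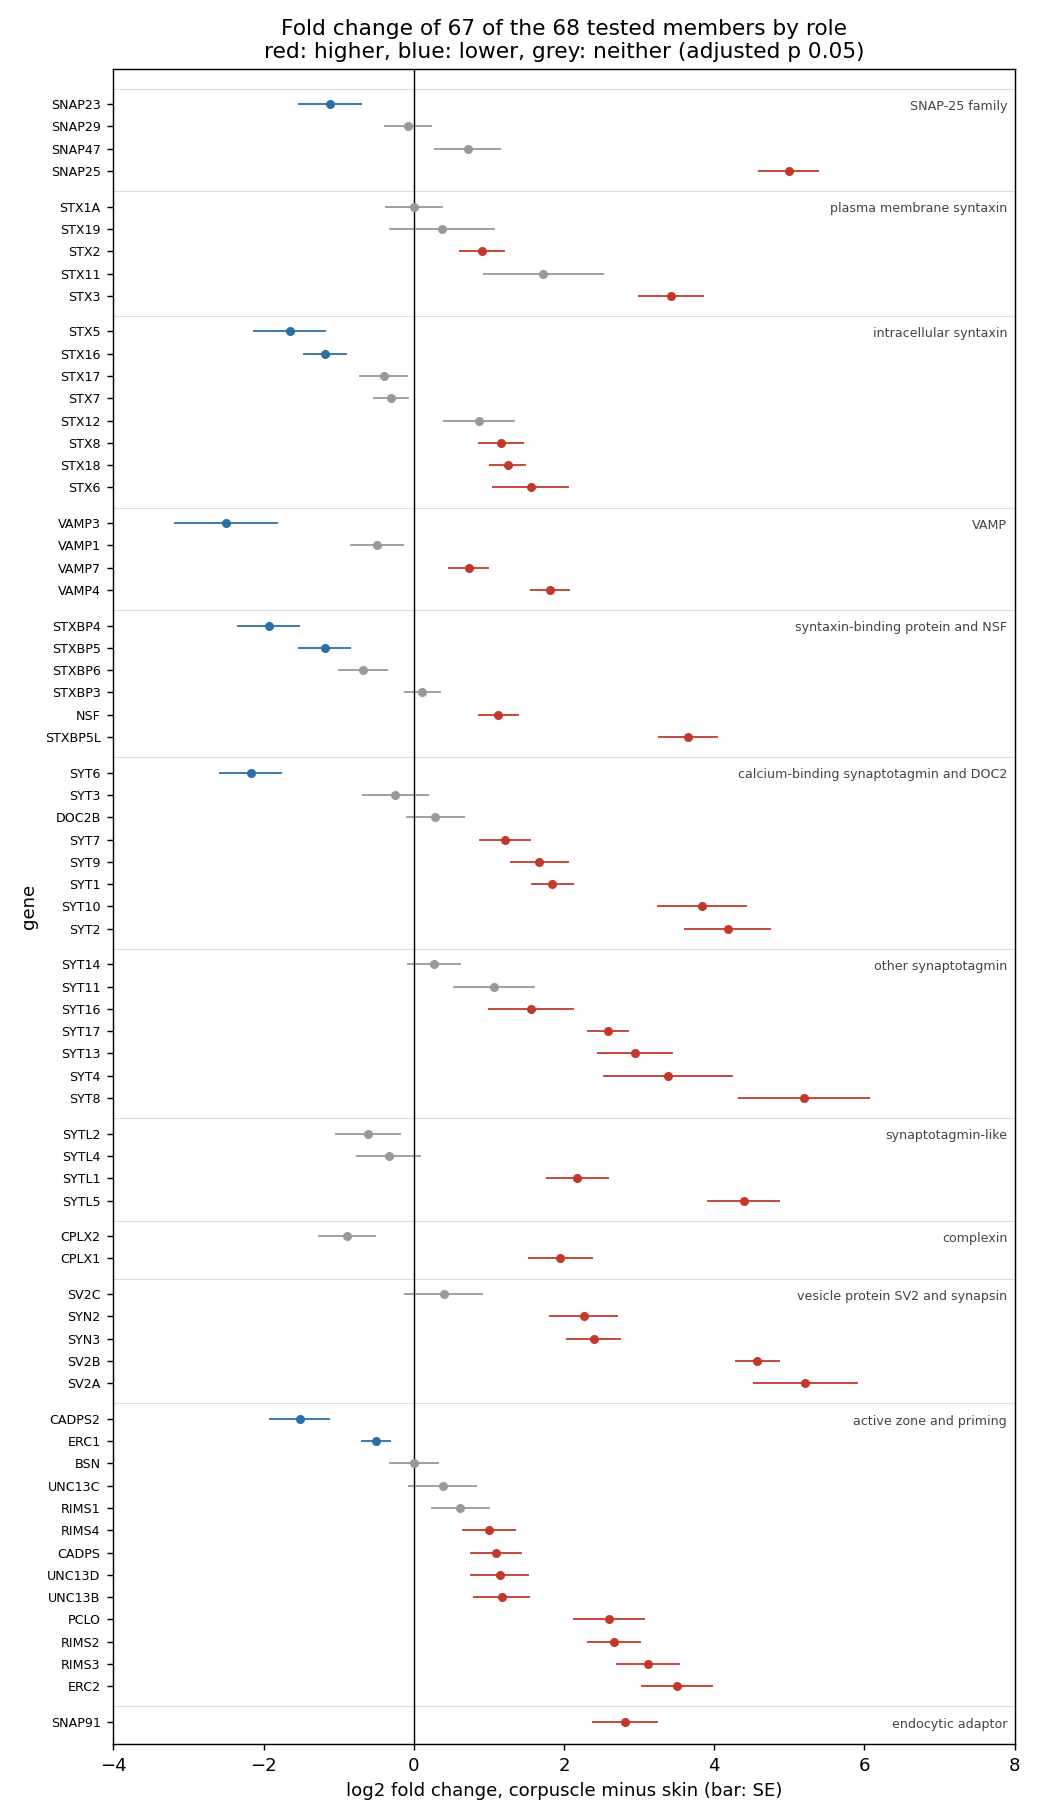
Log2 fold change (corpuscle minus skin, x axis, bars SE) of 67 of the 68 tested vesicle release genes, grouped by role on the y axis. Of the genes drawn, 36 are marked red (higher), 9 blue (lower) and 22 grey (neither at an adjusted p of 0.05); members of 1 family often lie on both sides of 0.

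Genes that neither tissue is known for gave a measure of background. Of 27 genes of liver, retina and germ cells in the table, 21 were tested, and 17 of them also rose in corpuscles while the others did not pass. That is 81% higher and 0% lower, against 52.9% and 13.2% of the members and 33% and 23.5% of all genes tested. Several of the 17 could pass the filter on low counts only through corpuscles. Among them were DAZL, FGA and TAT, with 1, 2 and 3 reads over all skin libraries. Their direction was fixed beforehand, so the 81% was in part set by the filter. The median level of these unrelated genes was 1.46 FPKM in corpuscles and 0.136 FPKM in skin, where FPKM is the deposited level per kilobase of gene length. Their 95th percentile in corpuscles, called the unrelated-organ level from here on, was 4.11 FPKM, against 2.84 FPKM in skin. It lies between TAT at 3.02 FPKM and SERPINC1 at 4.57 FPKM, so it rests on few genes. SERPINC1 was at 5.31 FPKM in skin and did not pass (adjusted p = 0.805, edgeR), so it is not a measure of background in corpuscles alone. Among the 36 members that rose, 17 lay above that level and 19 lay at or under it. The split was similar over all 4826 genes that rose, with 2408 above and 2418 at or under it. The members above it included SNAP25, SV2B, STX3, VAMP4, SYT1, SYT9, SYN2, SYN3, ERC2 and NSF. Those at or under it included SV2A, SYT2, SYT8, SYT10, SYTL5, STXBP5L, PCLO and all members of the RIM family that rose. Of the unrelated genes, APOH, which was called higher, was the highest in corpuscles, at 11.3 FPKM. STX3, SYN3, SYT9, ERC2, SYT7 and SYT17 lay above the unrelated-organ level but under APOH.

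**Figure D2:**
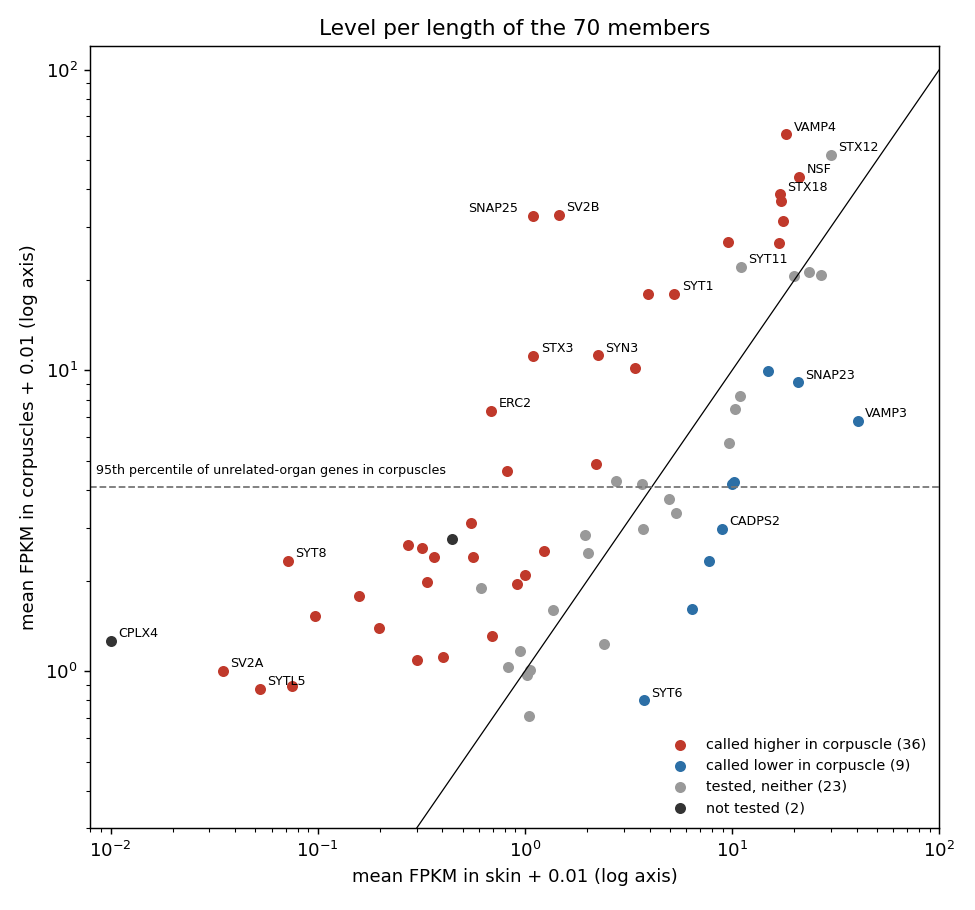
Mean level per gene length (FPKM + 0.01, log axes) of all 70 members in skin (x) and corpuscles (y), with the line of equal level and, dashed, the unrelated-organ level of 4.11 FPKM. SNAP25 and SV2B lie far above the line of equal level at over 30 FPKM in corpuscles; VAMP3 lies far below it.

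The SNAP25 family supplies the target-membrane SNARE that contributes a pair of helices to the fusion complex. SNAP25, the form of neurons and neuroendocrine cells, rose, and SNAP23, its broadly expressed counterpart, fell. SNAP25 was at 70.1, 36.4, 113, 52.6 and 96.3 CPM in corpuscles 1 to 5, and in skin it ran from 1.18 to 3.19 CPM (median 2.40). Every corpuscle library lay more than 10-fold above every skin library, with corpuscle 3 highest. The log2 fold change was 4.99 ± 0.41 (SE, adjusted p = 2.93e-07, edgeR). SNAP23 was at 47.3, 53.3, 23.4, 6.49 and 69.5 CPM in corpuscles 1 to 5 and ran from 75.3 to 109 CPM (median 84.4) in skin. The groups did not overlap, and corpuscle 4 was the lowest by far. Its log2 fold change was -1.12 ± 0.42 (adjusted p = 0.0351). The call of SNAP23 was lost without corpuscle 3 or without skin 1, 2, 4 or 5 (adjusted p from 0.0531 to 0.0799) and with upper-quartile factors, a minimum of 5 CPM or thinned libraries (adjusted p from 0.0516 to 0.104). Over all alternatives it ranged from 0.00298 to 0.104. SNAP29, which acts in fusion of autophagosomes with lysosomes, was at 113, 83.9, 199, 36.9 and 119 CPM in corpuscles 1 to 5 and ran from 91.5 to 146 CPM (median 116) in skin, with corpuscle 4 again lowest. SNAP47, a broadly distributed relative, averaged 16.6 ± 11.6 CPM over corpuscles and 10.1 ± 3.88 CPM over skin. Neither passed the test (adjusted p = 0.858 and 0.182). By level per length, SNAP25 made up 30.2 to 69.7% of the family's summed FPKM in corpuscles and 1.15 to 3.35% in skin. SNAP23 made up 4.42 to 22.7% in corpuscles and 37.6 to 45.2% in skin, so both shares were apart between the tissues in all 11 libraries.

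**Figure D3:**
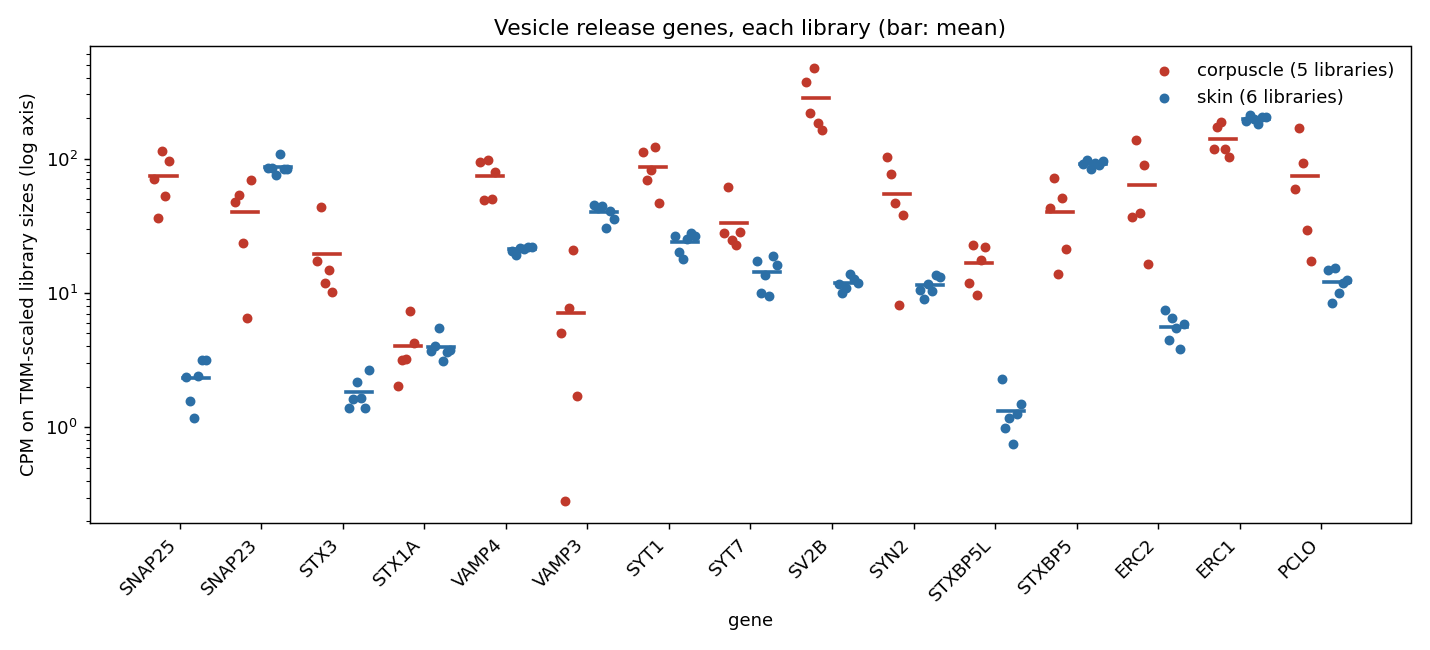
CPM (log axis) of 15 vesicle release genes in each of the 5 corpuscle (red) and 6 skin (blue) libraries, with bars at the group means. SNAP25, STX3, VAMP4, SYT1, SYT7, SV2B, STXBP5L, ERC2 and PCLO show no overlap with corpuscles above. VAMP3, SNAP23 and STXBP5 show none with corpuscles below. STX1A, SYN2 and ERC1 overlap.

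Syntaxins of the plasma membrane gave 2 members higher of 5, with 3 not passing. Of all genes tested, 33% were higher and 23.5% lower. STX1A, the syntaxin that pairs with SNAP25 at nerve terminals, did not pass. The gene was at 2.04, 3.20, 3.24, 7.28 and 4.23 CPM in corpuscles 1 to 5 and ran from 3.11 to 5.49 CPM (median 3.73) in skin, with a log2 fold change of 0.0041 ± 0.38 (adjusted p = 0.994). The ranges overlapped, and its sign turned under several alternatives given at the end. STX3, the syntaxin of apical epithelial membranes and of retinal ribbon synapses, rose. STX3 was at 17.4, 43.6, 11.95, 14.9 and 10.3 CPM in corpuscles 1 to 5 and ran from 1.39 to 2.67 CPM (median 1.64) in skin. Corpuscle 2 was highest, and the lowest corpuscle was still above every skin library (log2 fold change 3.42 ± 0.44, adjusted p = 1.22e-05). STX2, a broadly expressed plasma membrane syntaxin, rose by 0.91 ± 0.31 on the log2 scale (adjusted p = 0.0208). STX2 was at 72.9, 59.4, 72.6, 85.04 and 215 CPM in corpuscles 1 to 5 and ran from 47.7 to 59.4 CPM (median 54.3) in skin, so that corpuscle 5 stood far above the rest. Without corpuscle 5 the call of STX2 was lost (0.43, adjusted p = 0.0867), as it was without skin 6 (0.79, adjusted p = 0.0682) and without corpuscles 4 and 5 (0.34, adjusted p = 0.082, with 0.00593 to 0.19 over all alternatives).

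The remaining plasma membrane forms turned on single libraries. STX11, known from cytotoxic granules of immune cells, was at 0.355, 0.753, 0.463, 0.633 and 11.2 CPM in corpuscles 1 to 5 and ran from 0.463 to 1.12 CPM (median 0.902) in skin. STX19, a syntaxin without a membrane-spanning segment, was at 2.04, 25.6, 2.41, 2.38 and 1.17 CPM in corpuscles 1 to 5 and ran from 2.50 to 7.68 CPM (median 5.50) in skin. In each gene 1 corpuscle library (corpuscle 5 for STX11, corpuscle 2 for STX19) held most of the signal, and neither passed (adjusted p = 0.0778 and 0.674). STX11 passed without corpuscle 1 or 3 (adjusted p = 0.043 and 0.0491), its log2 fold change was -0.57 without corpuscle 5, and STX19 was lower without corpuscle 2 (-1.38, adjusted p = 0.0211). Over all alternatives the adjusted p ranged from 0.043 to 0.981 for STX11 and from 0.0211 to 0.808 for STX19. STX4 was not analysed here. Per length, STX2 was the most abundant plasma membrane syntaxin in both tissues, at 31.4 ± 19.9 FPKM in corpuscles and 17.6 ± 1.45 FPKM in skin. STX3 followed in corpuscles at 11.2 ± 7.80 FPKM but was at 1.09 ± 0.302 FPKM in skin, and STX1A was at 0.996 and 1.05 FPKM. The spreads of STX2 and STX3 in corpuscles were wide, and in corpuscle 2 STX3 made up the larger share (45.9%).

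Of the syntaxins of inner membranes 3 of 8 were higher and 2 lower, near the shares over all genes tested (33% and 23.5%). STX18, of retrograde transport to the endoplasmic reticulum, rose by 1.25 ± 0.24 on the log2 scale (adjusted p = 0.000438). It was at 80.9, 79.6, 117, 83.5 and 77.1 CPM in corpuscles 1 to 5 and ran from 28.4 to 53.7 CPM (median 33.7) in skin, with no overlap. Its relative spread over corpuscles (SD as a share of the mean) was 18.8%, the smallest of the 70 members. STX8, of late endosomes, was at 79.3, 55.05, 88.4, 25.2 and 95.9 CPM in corpuscles 1 to 5 and ran from 28.2 to 36.3 CPM (median 29.8) in skin. It rose by 1.16 ± 0.31 (adjusted p = 0.00503), with corpuscle 4 below every skin library and the others above. STX6, of the trans-Golgi network, rose by 1.55 ± 0.52 (adjusted p = 0.0184). STX6 was at 112, 102, 64.8, 4.12 and 121 CPM in corpuscles 1 to 5 and ran from 20.98 to 31.01 CPM (median 28.7) in skin, so that 4 corpuscles were above every skin library and corpuscle 4 below every one. It did not pass with limma-voom (1.11, adjusted p = 0.155, with 1.11e-05 to 0.155 over all alternatives). STX12, of recycling endosomes, showed the same order, at 106, 214, 129, 8.39 and 147 CPM in corpuscles 1 to 5 and 57.3 to 73.99 CPM (median 66.2) in skin. With all libraries STX12 missed the threshold (0.87 ± 0.48, adjusted p = 0.135), and it passed once corpuscle 4 was left out (1.17, adjusted p = 0.00024, with 0.00024 to 0.582 over all alternatives).

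Among the other inner-membrane syntaxins, STX5, of transport between endoplasmic reticulum and Golgi, and STX16, of the trans-Golgi network, fell. STX5 was at 5.14, 1.32, 1.20, 3.33 and 8.82 CPM in corpuscles 1 to 5 and ran from 10.1 to 14.7 CPM (median 12.4) in skin, a log2 fold change of -1.65 ± 0.49 (adjusted p = 0.00938). STX16 was at 25.1, 12.7, 29.1, 15.8 and 15.7 CPM and ran from 38.1 to 56.1 CPM (median 43.8) in skin (-1.18 ± 0.29, adjusted p = 0.00319). In both genes the groups did not overlap. STX7, of late endosomes, was at 43.5, 49.6, 37.6, 45.1 and 71.4 CPM in corpuscles 1 to 5 and ran from 52.9 to 81.9 CPM (median 56.9) in skin. STX17, of autophagosomes, averaged 38.6 ± 18.7 CPM over corpuscles and 51.1 ± 4.66 CPM over skin. Neither passed with all libraries (adjusted p = 0.305 and 0.309); STX7 was lower without corpuscles 4 and 5 (-0.49, adjusted p = 0.0484, with 0.0484 to 0.957 over all alternatives).

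The VAMP genes encode the vesicle SNAREs. VAMP3, also called cellubrevin and used in recycling endosomes of most cells, fell, and VAMP4 and VAMP7 rose. VAMP3 was at 5.05, 0.282, 7.78, 20.7 and 1.71 CPM in corpuscles 1 to 5 and ran from 30.3 to 45.01 CPM (median 42.01) in skin. Corpuscle 4 was the only corpuscle above 10 CPM, and it too lay below every skin library. Its log2 fold change of -2.50 ± 0.69 (adjusted p = 0.00604) was the lowest of the 68 members tested. VAMP4, of the trans-Golgi network, was at 95.1, 49.3, 97.7, 50.2 and 79.3 CPM in corpuscles 1 to 5 and ran from 19.2 to 22.1 CPM (median 21.6) in skin. The groups did not overlap (log2 fold change 1.81 ± 0.26, adjusted p = 3.58e-05), and the gene had the highest level per length of all members in corpuscles, 61.03 ± 19.9 FPKM. VAMP7, of late endosomes and lysosomes, was at 95.4, 64.3, 124, 37.5 and 96.5 CPM in corpuscles 1 to 5 and ran from 47.2 to 55.4 CPM (median 49.7) in skin. It rose by 0.73 ± 0.28 (adjusted p = 0.0348) with corpuscle 4 below every skin library. Its call was lost without corpuscle 1, 3 or 5 or skin 1, 2, 4, 5 or 6 (log2 fold changes from 0.54 to 0.75, adjusted p from 0.0553 to 0.107), with library sizes alone (0.64, adjusted p = 0.0504) and without a filter (0.66, adjusted p = 0.0549), and over all alternatives its adjusted p ran from 0.00121 to 0.244. VAMP1, a vesicle SNARE of neurons, was at 2.22, 3.76, 3.06, 4.91 and 4.50 CPM in corpuscles 1 to 5 and ran from 3.56 to 6.56 CPM (median 5.45) in skin, with overlap, and missed the threshold (adjusted p = 0.253). VAMP2 and VAMP8 were not analysed here. Of the summed FPKM of the 4 VAMP genes, VAMP3 made up 0.442 to 27.1% in corpuscles and 46.9 to 55.9% in skin, while VAMP4 made up 55.6 to 68.7% and 21.2 to 28.1%.

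**Figure D4:**
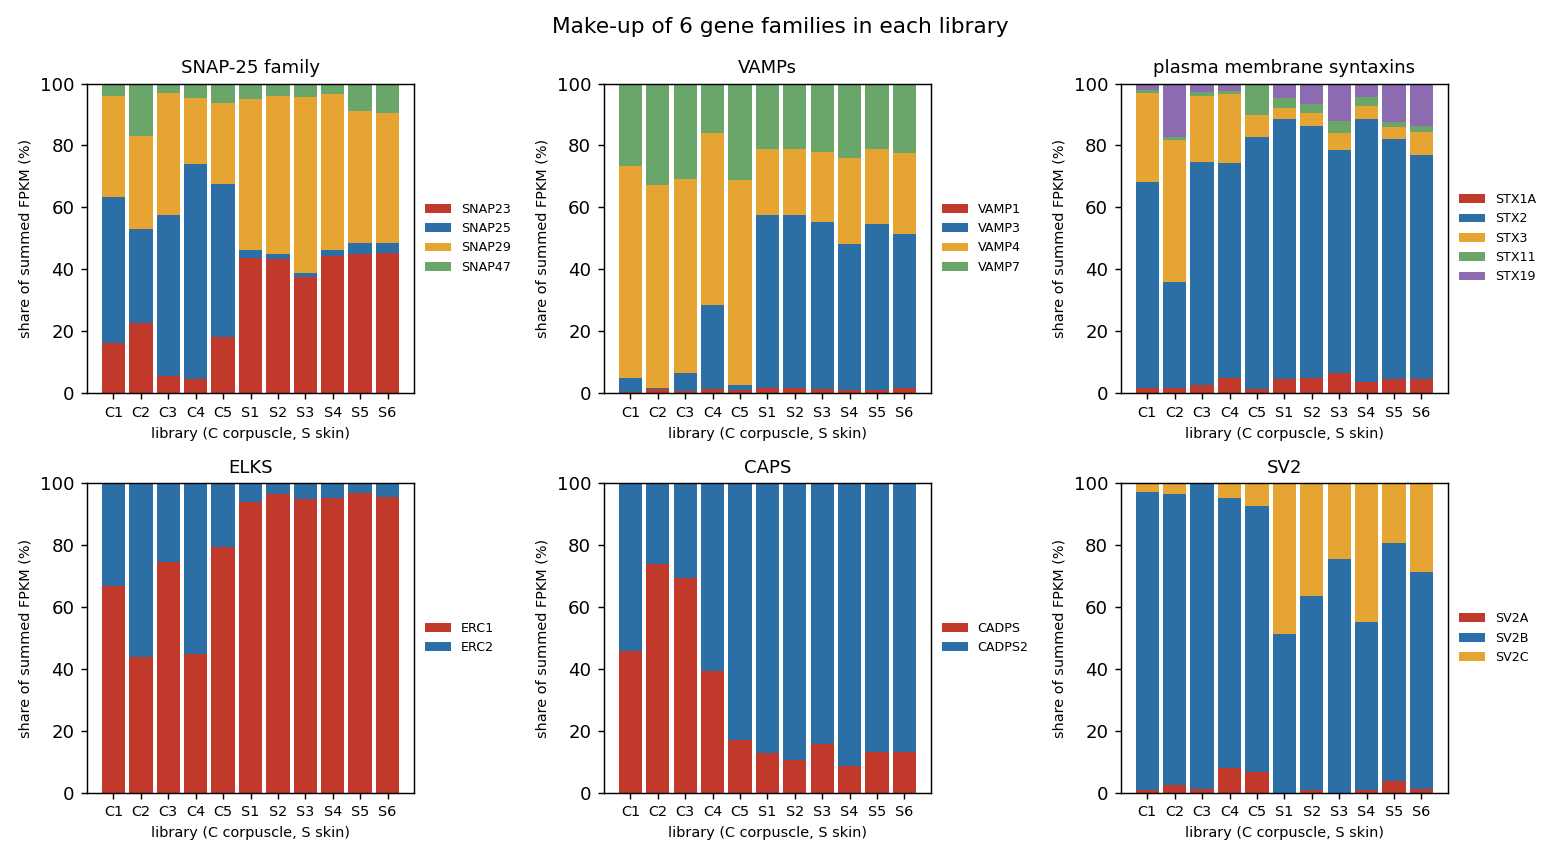
Share (%, y axis) of each gene in the summed FPKM of its family, in corpuscle libraries C1 to C5 and skin libraries S1 to S6. SNAP25 has a larger share than SNAP23 in each corpuscle library and a smaller one in each skin library, VAMP3 has at most 27.1% in corpuscles and at least 46.9% in skin, and the shares of ERC2, CADPS and SV2B are larger in each corpuscle library than in any skin library.

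Proteins that bind syntaxin and take SNAREs apart gave 2 higher and 2 lower of 7, near the shares over all genes tested (33% and 23.5%). NSF, the ATPase that takes spent SNARE complexes apart, rose and was among the 5 highest members per length in both tissues. NSF was at 217, 200.1, 256, 79.97 and 116 CPM in corpuscles 1 to 5 and ran from 71 to 103 CPM (median 75.5) in skin. Corpuscle 4 lay inside the skin range and the others above it (log2 fold change 1.13 ± 0.27, adjusted p = 0.00264). STXBP3, a broadly expressed syntaxin-binding protein, averaged 55.7 ± 18.2 CPM over corpuscles and 51.5 ± 6.42 CPM over skin (adjusted p = 0.718).

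Tomosyns, which occupy the place of VAMP in the SNARE complex and so restrain fusion, went in opposite directions. STXBP5L (tomosyn-like) was at 11.9, 22.7, 9.73, 17.7 and 21.96 CPM in corpuscles 1 to 5 and ran from 0.757 to 2.30 CPM (median 1.22) in skin, a log2 fold change of 3.65 ± 0.40 (adjusted p = 3.56e-06). STXBP5 (tomosyn) was at 43.1, 72.1, 13.9, 50.99 and 21.2 CPM in corpuscles 1 to 5 and ran from 83.98 to 97.8 CPM (median 91.7) in skin (-1.19 ± 0.35, adjusted p = 0.00975). Neither gene overlapped between tissues. Per length STXBP5 was the more abundant of the pair on average in corpuscles, at 4.23 against 1.77 FPKM. STXBP4, which binds syntaxin and regulates traffic of glucose transporters in mammals, fell (log2 fold change -1.93 ± 0.42, adjusted p = 0.00116). It was at 15.96, 9.97, 2.78, 11.7 and 4.77 CPM in corpuscles 1 to 5 and ran from 24.7 to 42.4 CPM (median 35.1) in skin, without overlap. STXBP6 (amisyn) averaged 28.9 ± 14.6 CPM over corpuscles and 46.2 ± 8.36 CPM over skin and missed the threshold (adjusted p = 0.0927), but was lower without corpuscle 3 (-0.95, adjusted p = 0.0193), as it was under limma-voom (-0.79, adjusted p = 0.0412, with 0.0193 to 0.328 over all alternatives).

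Synaptotagmins that bind calcium, with the related DOC2B, gave 5 higher and 1 lower of 8, against 33% and 23.5% of all genes tested. Of the 5 higher, 2 (SYT2 and SYT10) lay at or under the unrelated-organ level, against 2418 of the 4826 rises over all genes tested. SYT1, the calcium sensor of fast release, rose, as did SYT2 and SYT9, which serve the same function in other neurons. SYT1 was at 112, 69.2, 82.3, 122 and 46.3 CPM in corpuscles 1 to 5 and ran from 17.8 to 27.8 CPM (median 25.96) in skin, without overlap (log2 fold change 1.84 ± 0.28, adjusted p = 6.07e-05). SYT9 was at 57.1, 13.4, 45.7, 95.6 and 85.5 CPM in corpuscles 1 to 5 and ran from 15.8 to 22.6 CPM (median 18.6) in skin, with corpuscle 2 below every skin library (1.67 ± 0.39, adjusted p = 0.00194). Without corpuscles 4 and 5 the log2 fold change of SYT9 was lower (1.05, adjusted p = 0.0215, with 3.61e-05 to 0.0316 over all alternatives). SYT2 was at 2.31, 16, 3.98, 10.8 and 5.31 CPM in corpuscles 1 to 5 against 39 reads over all skin libraries (4.18 ± 0.58, adjusted p = 2.61e-05). Each corpuscle was above every skin library for SYT2, and its level in corpuscles was 1.51 FPKM. SYT2 needed corpuscle libraries to pass the filter on low counts, so the direction of its call was largely fixed beforehand.

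SYT7, the sensor of slow and asynchronous release, was at 27.8, 61.9, 24.7, 22.8 and 28.4 CPM in corpuscles 1 to 5 and ran from 9.47 to 18.8 CPM (median 14.9) in skin. Corpuscle 2 stood high, and the groups did not overlap (1.22 ± 0.35, adjusted p = 0.00736). SYT10, which controls secretion of a growth factor in olfactory neurons of the mouse, was at 6.21, 9.50, 14.5, 18.7 and 15.9 CPM in corpuscles 1 to 5 and ran from 0.264 to 2.06 CPM (median 0.477) in skin (3.83 ± 0.60, adjusted p = 6.54e-05). The direction of the SYT10 call was largely fixed by the filter, as for SYT2. SYT6, known from sperm acrosome exocytosis in mammals, fell. It was at 2.57, 1.69, 3.34, 3.80 and 2.34 CPM in corpuscles 1 to 5 and ran from 4.86 to 19.6 CPM (median 12.8) in skin, without overlap (-2.17 ± 0.42, adjusted p = 0.000415). SYT3 and DOC2B, high-affinity calcium sensors, did not pass (adjusted p = 0.657 and 0.547). SYT3 averaged 3.89 ± 2.73 CPM over corpuscles and 4.57 ± 1.30 CPM over skin. DOC2B was at 6.12, 3.58, 9.08, 6.33 and 2.16 CPM in corpuscles 1 to 5 and ran from 3.79 to 5.72 CPM (median 4.19) in skin, with 3 corpuscles above every skin library and 2 below.

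Among synaptotagmins that do not sense calcium in the same way, 5 of 7 rose and 2 did not pass. Of all genes tested, 33% rose. SYT17 varied little. It was at 23.8, 41.2, 31.2, 31.7 and 33.6 CPM in corpuscles 1 to 5 and ran from 4.99 to 5.79 CPM (median 5.35) in skin, a log2 fold change of 2.58 ± 0.28 (adjusted p = 3.4e-06). SYT13, which lacks calcium-binding residues, was at 2.57, 19.7, 9.36, 11.2 and 5.40 CPM in corpuscles 1 to 5 and ran from 0.627 to 2.12 CPM (median 1.15) in skin (2.95 ± 0.50, adjusted p = 0.000153). SYT8 was at 1.42, 7.34, 2.41, 9.03 and 6.39 CPM in corpuscles 1 to 5 against 13 reads over all skin libraries, with 3 skin libraries at 0 (5.19 ± 0.88, adjusted p = 0.000145). For all 3 genes the groups did not overlap. SYT8 needed corpuscle libraries to pass the filter on low counts, so the direction of its call was largely fixed beforehand.

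SYT4, found on dense-core vesicles, was at 1.60, 1.04, 2.32, 9.98 and 53.5 CPM in corpuscles 1 to 5 and ran from 0.748 to 2.16 CPM (median 1.26) in skin. Its rise of 3.38 ± 0.87 (adjusted p = 0.00388) rested on corpuscle 5, without which it did not pass (1.48, adjusted p = 0.0512), as it did not with limma-voom (1.86, adjusted p = 0.0701). Without corpuscles 4 and 5 the value was 0.33, adjusted p = 0.528, and over all alternatives the adjusted p ran from 3.22e-05 to 0.528. SYT16 was at 1.68, 2.63, 4.54, 16.5 and 5.94 CPM in corpuscles 1 to 5 and ran from 0.925 to 4.36 CPM (median 1.84) in skin. It rose by 1.56 ± 0.57 (adjusted p = 0.029) but did not pass without corpuscle 4 (0.82, adjusted p = 0.151), without corpuscles 4 and 5 (0.49, adjusted p = 0.412), or without skin 1, 5 or 6 (adjusted p = 0.0568, 0.0601 and 0.0722) or with limma-voom (1.23, adjusted p = 0.0656, with 0.00891 to 0.412 over all alternatives). SYT11, a close relative of SYT4, was at 66.4, 151, 202, 46.7 and 6.48 CPM in corpuscles 1 to 5 and ran from 35.97 to 57.6 CPM (median 43.6) in skin. Corpuscle 5, the highest for SYT4, was the lowest for SYT11 and lay below every skin library. SYT11 missed the threshold (1.07 ± 0.54, adjusted p = 0.105) and passed once corpuscle 5 was left out (1.37, adjusted p = 0.00494, with 0.000369 to 0.663 over all alternatives). SYT14 averaged 51.3 ± 34.2 CPM over corpuscles and 42.6 ± 4.74 CPM over skin and missed the threshold (adjusted p = 0.552), which it passed without corpuscles 4 and 5 (0.67, adjusted p = 0.0404, with 0.0404 to 0.915 over all alternatives).

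Synaptotagmin-like proteins bind the small GTPase Rab27 and tether secretory granules to the plasma membrane. SYTL5 was at 4.70, 7.72, 5.56, 15.4 and 8.01 CPM in corpuscles 1 to 5 and ran from 0.260 to 0.836 CPM (median 0.291) in skin, a log2 fold change of 4.39 ± 0.49 (adjusted p = 3.59e-06). SYTL1 was at 10.2, 3.20, 4.26, 4.12 and 3.87 CPM in corpuscles 1 to 5 and ran from 0.719 to 1.68 CPM (median 1.15) in skin (2.18 ± 0.42, adjusted p = 0.000464). Both rose without overlap, at levels under the unrelated-organ level (0.862 and 2.38 FPKM). SYTL5 needed corpuscle libraries to pass the filter on low counts, so the direction of its call was largely fixed beforehand. SYTL2 averaged 20.97 ± 15.2 CPM over corpuscles and 31.9 ± 5.98 CPM over skin, and SYTL4, the granuphilin of insulin granules, averaged 9.92 ± 6.83 CPM and 12.5 ± 1.96 CPM. Neither passed (adjusted p = 0.25 and 0.535), and SYTL2 was lower without corpuscle 4 (-1.04, adjusted p = 0.0373, with 0.0373 to 0.609 over all alternatives).

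Complexins, small proteins that clamp the partly assembled SNARE complex, were low in both tissues. CPLX1, of fast central synapses, rose by 1.95 ± 0.43 on the log2 scale (adjusted p = 0.00124). It was at 7.98, 1.60, 6.76, 4.59 and 3.78 CPM in corpuscles 1 to 5 and ran from 0.975 to 1.71 CPM (median 1.21) in skin, with corpuscle 2 inside the skin range. CPLX2 was at 2.93, 1.13, 2.87, 2.38 and 2.16 CPM in corpuscles 1 to 5 and ran from 2.83 to 6.62 CPM (median 4.10) in skin, and did not pass (-0.89 ± 0.39, adjusted p = 0.0611). It was lower without corpuscle 1 (-1.02, adjusted p = 0.045), without a filter (-0.96, adjusted p = 0.0454) and with DESeq2 (-0.83, adjusted p = 0.047, with 0.045 to 0.151 over all alternatives). CPLX3 and CPLX4 are the complexins of retinal ribbon synapses, and both were left out by the filter on low counts. CPLX4 was at 0.975, 2.92, 0.741, 3.80 and 3.15 CPM in corpuscles 1 to 5 and had 0 reads in skin, which allows up to 0.0311 CPM at 3 reads over the 6 skin libraries. Pooled over libraries it was at least 69.8-fold higher in corpuscles, at 109 reads in all. CPLX3 had 117 reads over corpuscles and 43 over skin, and was at 0.532, 3.95, 0.649, 7.60 and 1.26 CPM in corpuscles 1 to 5. Without a filter both were called higher (adjusted p = 0.00421 for CPLX3 and 4.02e-05 for CPLX4). They passed the filter and were called higher without corpuscle 3 (adjusted p = 0.00223 and 7.05e-05), as was CPLX3 without corpuscle 1 (adjusted p = 0.00166). With 0 reads in skin, CPLX4 can pass a count filter only through corpuscles. The direction of its call there was fixed beforehand, so that call adds nothing to the counts above. CPLX3 was too low in skin to pass that filter without corpuscles, so the direction of its calls after filtering was largely fixed too. CPLX1, CPLX3 and CPLX4, at 1.08, 2.75 and 1.25 FPKM in corpuscles, all lay under the unrelated-organ level of 4.11 FPKM. Among the genes behind that level, PRPH2, TTR and FGB likewise had 0 reads in skin, and the retinal genes PDE6B and RBP3 were called higher. PDE6B and RBP3 too could pass the filter only through corpuscles.

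Proteins that sit on synaptic vesicles gave 4 higher of 5, with SV2C not passing. Of all genes tested, 33% were higher. SV2B, a vesicle glycoprotein related to transporters, had the highest CPM of all members in corpuscles. It was at 373, 217, 475, 184 and 162 CPM in corpuscles 1 to 5 and ran from 10.03 to 13.9 CPM (median 11.7) in skin. Every corpuscle lay more than 10-fold above every skin library (log2 fold change 4.58 ± 0.31, adjusted p = 5.51e-08). SV2A, its most widespread brain form in mammals, was at 1.06, 1.69, 1.67, 5.23 and 3.87 CPM in corpuscles 1 to 5 against 6 reads over all skin libraries (5.21 ± 0.70, adjusted p = 1.9e-05). At 0.993 FPKM in corpuscles, SV2A lay under the unrelated-organ level of 4.11 FPKM. With so few reads in skin, SV2A could pass the filter on low counts only through corpuscles. The direction of its call was thus fixed beforehand, and that call adds nothing to the counts. SV2C was at 14.99, 11.1, 1.58, 13.9 and 18.5 CPM in corpuscles 1 to 5 and ran from 4.36 to 15.8 CPM (median 7.26) in skin, and missed the threshold (adjusted p = 0.54). SV2B thus made up 86.2 to 98.7% of the summed SV2 FPKM in corpuscles and 51.3 to 76.96% in skin.

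Synapsins tether vesicles in the reserve pool of a terminal, and SYN1 was not analysed here, nor were STXBP2 and DOC2A. SYN2 was at 103, 76.5, 46.8, 8.08 and 37.9 CPM in corpuscles 1 to 5 and ran from 8.99 to 13.5 CPM (median 11.2) in skin, with corpuscle 4 below every skin library (log2 fold change 2.26 ± 0.46, adjusted p = 0.000714). SYN3 was at 48.4, 30.5, 63.6, 17.7 and 60.6 CPM in corpuscles 1 to 5 and ran from 5.71 to 11.8 CPM (median 7.93) in skin (2.40 ± 0.37, adjusted p = 5.55e-05). For SYN3 the groups did not overlap, and both synapsins lay above the unrelated-organ level, at 17.97 and 11.2 FPKM.

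Active zone and priming genes gave 8 higher and 2 lower of 13, against 33% and 23.5% of all genes tested. Of the 8 higher, 7 lay at or under the unrelated-organ level, and only ERC2 lay above it. Over all genes tested, 2418 of the 4826 rises lay at or under it. ERC2, the ELKS protein of nerve terminals, was at 36.6, 138, 39.2, 89.9 and 16.4 CPM in corpuscles 1 to 5 and ran from 3.83 to 7.52 CPM (median 5.69) in skin. The groups did not overlap, though corpuscles ranged widely with corpuscle 2 highest (3.51 ± 0.48, adjusted p = 2.12e-05). ERC1, its broadly expressed counterpart, was at 119, 173, 186, 117 and 103 CPM in corpuscles 1 to 5 and ran from 182 to 211 CPM (median 199.9) in skin. It fell slightly (-0.50 ± 0.20, adjusted p = 0.0397), a call that was lost without corpuscle 1 or 5 or skin 1, 2, 3, 4 or 5 (log2 fold changes from -0.52 to -0.41, adjusted p from 0.0562 to 0.0839) and without corpuscles 4 and 5 (-0.32, adjusted p = 0.101). It also did not pass with DESeq2 or its size factors, upper-quartile factors, thinned libraries or a minimum of 5 CPM (adjusted p from 0.0666 to 0.319, with 0.0112 to 0.319 over all alternatives). ERC2 made up 20.4 to 56.2% of the pair's summed FPKM in corpuscles and 2.95 to 5.98% in skin.

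PCLO and BSN are the giant scaffold proteins of the active zone. PCLO was at 59.7, 169.6, 92.3, 29.6 and 17.2 CPM in corpuscles 1 to 5 and ran from 8.45 to 15.3 CPM (median 12.1) in skin, without overlap (2.60 ± 0.48, adjusted p = 0.000294). BSN was at 11.9, 14.8, 16.9, 32.3 and 18.5 CPM in corpuscles 1 to 5 and ran from 11.97 to 26.4 CPM (median 18.9) in skin, and did not pass (0.0036 ± 0.34, adjusted p = 0.994). PCLO in corpuscles lay under the unrelated-organ level, at 3.10 FPKM, and BSN was at 0.962 FPKM.

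RIM proteins link vesicles to calcium channels. RIMS2 was at 17.6, 27.9, 20.4, 20.3 and 8.19 CPM in corpuscles 1 to 5 and ran from 2.41 to 3.71 CPM (median 2.98) in skin (2.67 ± 0.36, adjusted p = 1.82e-05). RIMS3, a short form, was at 29, 48.6, 12.5, 12.04 and 24.9 CPM in corpuscles 1 to 5 and ran from 1.67 to 4.25 CPM (median 2.88) in skin (3.12 ± 0.43, adjusted p = 2.22e-05). Both rose without overlap. RIMS4, another short form, rose by 1.00 ± 0.36 (adjusted p = 0.0269), to 11.7 ± 5.17 CPM on average from 5.82 ± 1.12 CPM, but lost its call without corpuscle 2 or 3 or skin 2, 3 or 4 (adjusted p from 0.0515 to 0.0701, with 0.00374 to 0.154 over all alternatives). RIMS1 was at 24.9, 21.3, 39.7, 12.2 and 30.2 CPM in corpuscles 1 to 5 and ran from 7.17 to 25.9 CPM (median 17.5) in skin, and missed the threshold (adjusted p = 0.188). All 4 RIM genes lay under 4.11 FPKM in corpuscles.

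UNC13 proteins prime vesicles by opening syntaxin. UNC13B was at 25.7, 13.6, 17.6, 40.5 and 9.99 CPM in corpuscles 1 to 5 and ran from 7.61 to 13.3 CPM (median 9.21) in skin (1.17 ± 0.37, adjusted p = 0.0149), and did not pass without skin 6 (adjusted p = 0.0504, with 0.00151 to 0.151 over all alternatives). UNC13D, the form of blood cell granules, was at 3.19, 12.9, 6.02, 12.7 and 9.72 CPM in corpuscles 1 to 5 and ran from 3.04 to 5.43 CPM (median 3.87) in skin (1.14 ± 0.39, adjusted p = 0.0213). It did not pass without corpuscle 2 (adjusted p = 0.0509) or without corpuscles 4 and 5 (0.87, adjusted p = 0.0817, with 0.00324 to 0.154 over all alternatives). UNC13C, a brain form, was at 4.17, 22.5, 4.17, 16.2 and 10.6 CPM in corpuscles 1 to 5 and ran from 5.86 to 13.7 CPM (median 7.81) in skin, with overlap and no call (adjusted p = 0.493).

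CADPS and CADPS2 encode the CAPS proteins that prime dense-core vesicles for release. CADPS was at 14.7, 17.1, 17.1, 8.39 and 6.66 CPM in corpuscles 1 to 5 and ran from 4.85 to 7.29 CPM (median 5.91) in skin, a log2 fold change of 1.10 ± 0.34 (adjusted p = 0.0129). CADPS2 was at 17.2, 5.93, 7.41, 12.7 and 31.7 CPM in corpuscles 1 to 5 and ran from 34.9 to 51.4 CPM (median 41.7) in skin (-1.52 ± 0.40, adjusted p = 0.00479). CADPS rose with corpuscle 5 inside the skin range, and CADPS2 fell without overlap, with corpuscle 5 the highest corpuscle. CADPS made up 17.1 to 73.99% of the pair's summed FPKM in corpuscles and 8.50 to 15.8% in skin.

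SNAP91 carries a SNAP symbol but encodes a clathrin adaptor of synaptic vesicle retrieval, not a SNARE. It rose, at 8.25, 6.96, 20.1, 17.6 and 6.75 CPM in corpuscles 1 to 5 and 0.935 to 2.83 CPM (median 1.56) in skin (2.81 ± 0.44, adjusted p = 6.37e-05). A further 3 genes of the table stood under locus identifiers that the RefSeq gene table of the Pekin duck (assembly IASCAAS_PekinDuck_T2T) names UNC13A, SYT12 and SYTL3, and they are not counted among the members. The locus named UNC13A, the main priming protein of neurons, averaged 10.02 ± 2.48 CPM over corpuscles and 9.42 ± 2.65 CPM over skin and missed the threshold (adjusted p = 0.833). The locus named SYT12 rose by 2.14 ± 0.53 (adjusted p = 0.00304), from 1.25 ± 0.894 CPM to 5.52 ± 2.50 CPM. The locus named SYTL3 averaged 2.61 ± 1.58 CPM over corpuscles and 1.95 ± 0.633 CPM over skin (adjusted p = 0.492).

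Corpuscle libraries differed from each other more than skin libraries did. The median relative spread was 53.6% over corpuscles for the 59 members at 5 CPM or more there, and 16.1% over skin for the 46 members at 5 CPM or more there. Of the members at 5 CPM or more, SYT4 (165%), STX19 (157%), VAMP3 (115%), SYT16 (95.1%) and SYT11 (84.5%) varied most over corpuscles. Among the 36 members that rose, corpuscle 2 was the highest corpuscle in 11 and corpuscle 3 in 10, and corpuscle 5 was the lowest in 11 and corpuscle 1 in 9. Corpuscle 4 was the highest in 8 and the lowest in 8. Merkel cell markers summed to 44617, 79447, 61243, 14528 and 40879 CPM in corpuscles 1 to 5, mostly from CHGB, and the other 8 markers to 6440, 11152, 11086, 1939 and 1683 CPM. The order of corpuscles depended on the marker: CHGB was lowest in corpuscle 4, whereas ATOH1, a Merkel cell transcription factor, was highest there, at 66.8 CPM against 7.6 to 40.2 CPM in the others. Sensory axon markers, mostly UCHL1, summed to 956, 1076, 1576, 516 and 301 CPM, and the markers of unrelated organs to 169, 126, 145, 284 and 237 CPM.

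**Figure D5:**
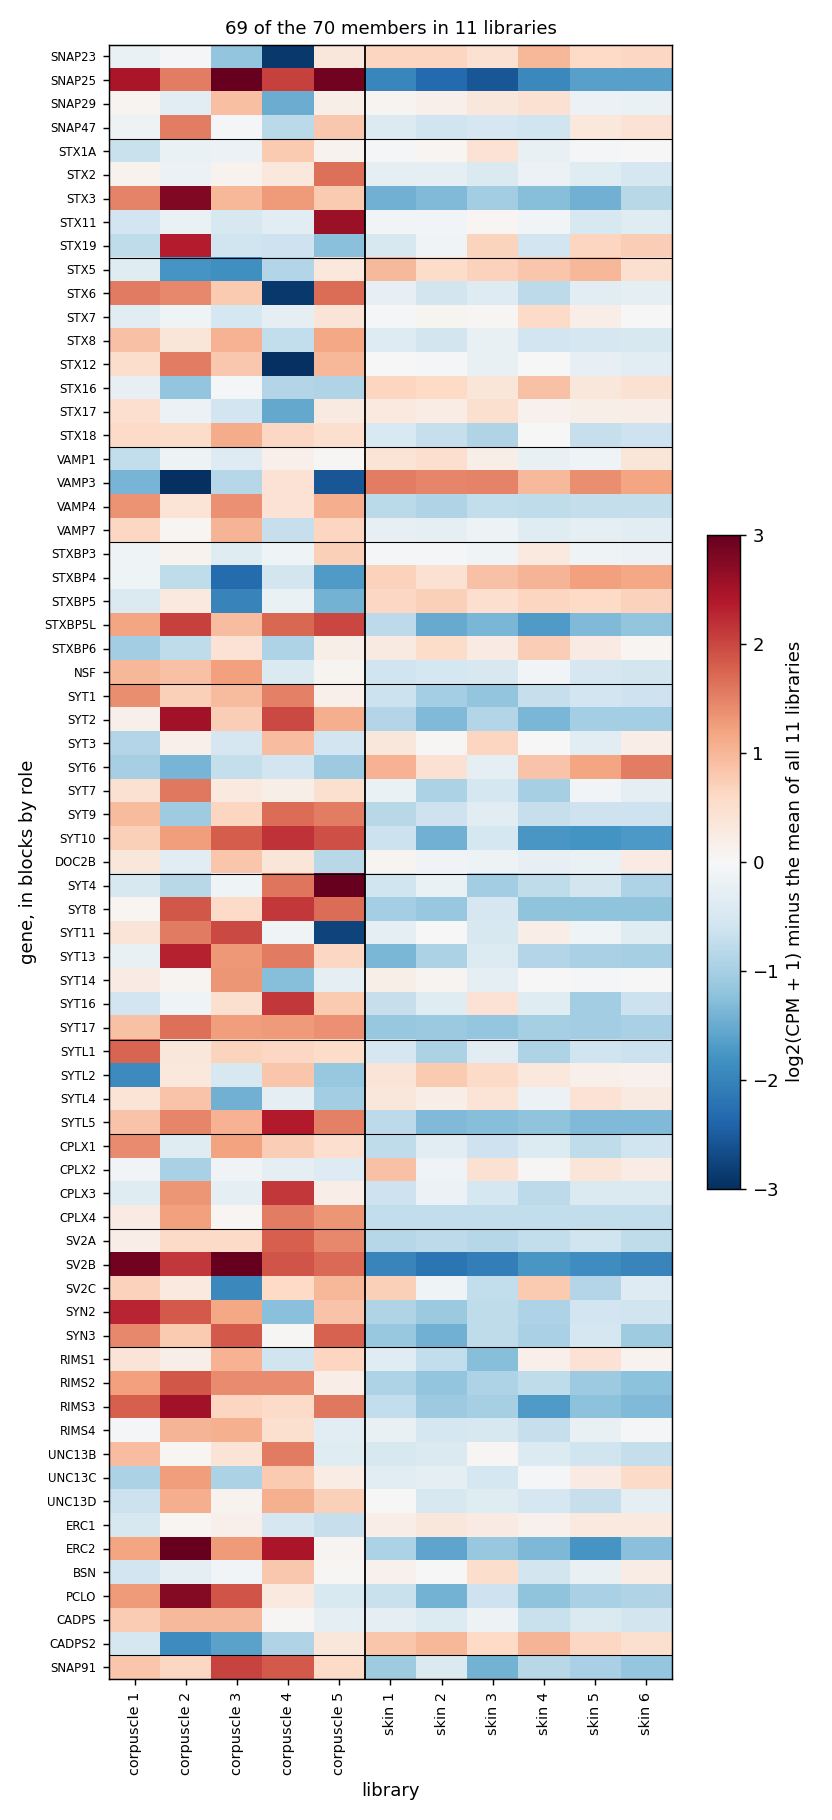
Log2(CPM + 1) of 69 of the 70 members (rows, in blocks by role) in the 11 libraries (columns), minus the mean of each gene over all libraries; colours stop at 3 above or below. SNAP25 and SV2B are high in all 5 corpuscles, whereas STX11, STX19 and SYT4 are high in 1 corpuscle each and STX6 and STX12 low in corpuscle 4.

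Other genes of vesicle traffic were read from a list of 114 partner names. Those not found included ELKS and AP180, which are other names of the members ERC1 and SNAP91. Of the list, 100 were in the table and 97 were tested. Of these 40 rose and 15 fell, or 8 with a minimum of 5 CPM, with a median log2 fold change of 0.48. These are 41.2% higher and 15.5% lower, against 33% and 23.5% of all genes tested, so the partners lay nearer to the share over all genes than the members did. Further SNAREs of the Golgi and endoplasmic reticulum gave 7 higher and 1 lower of 11 (63.6% and 9.09%). BET1 rose to 170.0 ± 52.2 CPM from 33.9 ± 8.73 CPM (2.33 ± 0.27, adjusted p = 5.07e-06), and GOSR2 to 278 ± 78.5 CPM from 72.6 ± 9.35 CPM (1.94 ± 0.22, adjusted p = 4.16e-06). Of the proteins that disassemble or chaperone SNAREs 5 rose and 2 fell of 9 (55.6% and 22.2%). NAPB, the brain form of the adaptor through which NSF binds SNAREs, rose by 2.83 ± 0.35 (adjusted p = 9.35e-06) to 60.3 ± 28.4 CPM from 8.48 ± 1.18 CPM. VPS45, the syntaxin partner of endosomes, rose by 2.43 ± 0.38 (adjusted p = 7.18e-05).

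Of 13 Rab3 and Rab27 genes and effectors, 5 rose and 1 fell (38.5% and 7.69%). The share of rises is near the 33% of all genes tested, of which 23.5% fell. Those that rose included RAB3C (2.08 ± 0.33, adjusted p = 8.33e-05) and RAB27A (2.05 ± 0.36, adjusted p = 0.000198), the GTPases that bring granules to the membrane. Of 12 active zone partners 5 rose and 4 fell (41.7% and 33.3%). RIMBP2, which joins RIM to calcium channels, rose to 64.6 ± 45.6 CPM from 6.10 ± 0.790 CPM (3.40 ± 0.45, adjusted p = 1.73e-05). Vesicle membrane proteins gave 3 higher and 1 lower of 9 (33.3% and 11.1%). Among them SYNGR2, a synaptogyrin of many tissues, rose by 2.95 ± 0.45 (adjusted p = 5.06e-05). Vesicular transporters gave 6 higher and 1 lower of 8 (75% and 12.5%). All 6 lay at or under the unrelated-organ level, against 2418 of the 4826 rises over all genes tested. SLC17A6, which loads glutamate into vesicles, was at 5.20 ± 1.87 CPM on average over corpuscles and 0.268 ± 0.207 CPM over skin (4.26 ± 0.64, adjusted p = 4.87e-05).

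The exocyst, a tether for vesicles at the plasma membrane, gave 5 higher of 13, with 8 not passing. That is 38.5% higher, near the 33% of all genes tested. EXOC4 rose by 1.60 ± 0.31 (adjusted p = 0.000408). Genes of vesicle endocytosis gave 4 higher and 5 lower of 22, or 18.2% and 22.7%. BIN1 and AMPH, of the amphiphysin family that bends membranes, rose by 2.90 ± 0.19 and 5.58 ± 0.55, BIN1 to 510.1 ± 123 CPM from 68.2 ± 5.91 CPM, while SH3GL1, an endophilin, fell (-3.12 ± 0.58, adjusted p = 0.000308).

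Gene length was taken from the ratio of deposited values. Its median was 4884 bp for the 36 that rose, 4601 bp for the 9 that fell and 3877 bp for the 23 that did not pass. Over all genes it was 2917 bp for those higher, 4264 bp for those lower and 3396 bp for the rest. In the authors' deposited table, 37 members are higher and 10 lower in corpuscles at a false discovery rate of 0.05. That call was the same as here for 66 of the 70 members and opposite for 0, the exceptions being CPLX2, CPLX3, CPLX4 and VAMP7.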

How the data were processed

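The submitters' processing notes name R 4.2.1, edgeR 3.38.4, Subread 2.0.1, featureCounts, STAR 2.7.7a, Trimmomatic 0.39 and CASAVA 1.8.2, while genome build, annotation and strand use are not given in the sources used here. The authors deposited whole-number counts per gene. They also deposited a signal (normalized counts, the count over 1 factor per sample from the values) and FPKM, that signal per kilobase. The authors' deposited comparison holds a log2 fold change, a p-value and a false discovery rate.

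Counts were fitted here with filterByExpr, TMM factors and the robust quasi-likelihood test of edgeR 4.0.16 (R 4.3.3) on tissue alone, and p-values were adjusted over 14638 genes. CPM use TMM-scaled library sizes. A floor of 3 counts equals 0.135 to 0.475 CPM and covers counting error only. The 21 alternatives changed the scaling or filter, used DESeq2 1.42.0, limma-voom (limma 3.58.1), a replicate block or thinning, or left libraries out. Tools were tested on simulated data, where DESeq2 made more false calls than the others. Libraries of a tissue differed beyond sampling noise (lowest chi-square per degree of freedom 11.6). Members, lists and tests were chosen with earlier results of these data known. Named by rule were 30 listed members found in the table, the 10 largest rises and 8 largest falls at 5 CPM or more, the 5 highest per length in each tissue, the 5 most variable, and up to 3 called partners per role; other members were named after their values were seen. For 1 listed member, counted in the totals, no value is reported here. Figures were drawn with matplotlib 3.10.9.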

Additional observations from a re-analysis of the deposited data

Results flagged for a closer look

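In 17 of 139 gene and tissue groups, 1 library lay far from the others of its tissue (Dixon's gap ratio on CPM). For independent, normally distributed values about 1 in 20 groups would be flagged by chance, here 6.95. CPM were not log-transformed and the groups share libraries, so the number to be flagged by chance is not known here. In corpuscle 5, STX11 was at 11.2 CPM, STX2 at 215 CPM and SYT4 at 53.5 CPM. In corpuscle 2, STX19 was at 25.6 CPM, STX3 at 43.6 CPM and SYT7 at 61.9 CPM. SYTL1 was at 10.2 CPM in corpuscle 1, STX18 at 117 CPM in corpuscle 3 and SYT16 at 16.5 CPM in corpuscle 4. In skin 4, NSF was at 103 CPM, SNAP23 at 109 CPM, STX7 at 81.9 CPM and STXBP3 at 64.1 CPM. In skin 3, SYT16 was at 4.36 CPM, SYT8 at 0.623 CPM (10 reads) and UNC13B at 13.3 CPM, and in skin 1 SYTL5 was at 0.836 CPM (12 reads). In each of these the library was the highest of its tissue.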

How the results depend on the processing

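Of the 45 members called, 32 (25 higher and 7 lower) kept call and direction under each of the 21 alternatives that tested them, and 36 kept them when any 1 library was left out. Among the 32 are SV2A, SYT2, SYT8, SYT10 and SYTL5, whose direction was largely fixed by the filter on low counts. The minimum of 5 CPM tested only 54 members. Of the 32 kept, it did not test CPLX1, SV2A, SYT2, SYT8, SYT13, SYTL1 and SYTL5, and thinning did not test SV2A and SYT8. Leaving out 1 library gave 32 to 37 members higher and 7 to 10 lower, and 4200 to 5108 genes higher and 3088 to 3903 lower overall. Among partner genes it gave 39 to 44 higher and 11 to 19 lower, and the minimum of 5 CPM gave 8 lower; that filter tests fewer genes. The median log2 fold change of all genes, 0.18, was 0.33 with upper-quartile factors, 0.34 without a filter, -0.047 with limma-voom and -0.15 with the replicate block, and that of the members, 1.08, was 1.20, 1.04, 0.82 and 0.75. The replicate numbers are not said to mark shared animals or days, and deviations of same-numbered libraries correlated at -0.15 to 0.13, with no corpuscle library closest to the skin library of its own number. Corpuscles 4 and 5 correlated with skin 5 and 6 at 0.076 to 0.16, and corpuscles 1 to 3 with skin 5 and 6 at -0.16 to -0.067. Neither the main fit nor the replicate block models such groups, and whether these libraries share an isolation or batch was not tested. With the replicate block, which leaves out skin 6, 25 members were higher and 8 lower, and 33 of the 45 calls were kept; those lost were CADPS, ERC1, RIMS4, STX2, STX6, STX8, SYT16, SYT4, SYT7, UNC13B, UNC13D and VAMP7 (adjusted p = 0.129 for CADPS, 0.0644 for STX8 and 0.0651 for SYT7, which no other alternative changed). No call of a member was reversed, and 0 of 27 partner genes and loci picked by rule changed call in any alternative. Members that did not pass turned sign as follows, and the cause was not tested. BSN went to -0.031 with library size only, -0.079 without a filter, -0.059 with limma-voom, -0.097 with the replicate block, -0.38 without corpuscles 4 and 5, and ranged from -0.28 to 0.14 with 1 library left out. STX1A went to -0.028, -0.079, -0.11, -0.20 and -0.49 in the same settings, and ranged from -0.32 to 0.15 with 1 library left out. SNAP29 went to 0.050 with upper-quartile factors, 0.19 with a minimum of 5 CPM, 0.061 when thinned, 0.18 without corpuscles 4 and 5, and ranged from -0.40 to 0.15 with 1 library left out. With the replicate block, STX11 was at -0.022, STX19 at -0.55, STXBP3 at -0.050 and SYT14 at -0.065. STX19 was at -0.51 with limma-voom, and without corpuscles 4 and 5 STX11 was at -0.64 and STXBP3 at -0.097. With 1 library left out, STX11 ranged from -0.57 (corpuscle 5) to 1.99, STX19 from -1.38 (corpuscle 2) to 0.65, STXBP3 from -0.10 (corpuscle 5) to 0.21, SYT14 from -0.20 (corpuscle 3) to 0.49 and UNC13C from -0.016 (corpuscle 2) to 0.60. The locus named UNC13A was at -0.15 without corpuscles 4 and 5, and ranged from -0.011 (corpuscle 5) to 0.24 with 1 library left out. Levels near the genes of unrelated organs limit the 19 rises at or under 4.11 FPKM. Rises between that level and the 11.3 FPKM of APOH are limited in part too. The low-input RNA of corpuscles and the difference of kit cannot be told apart from tissue in any call, rises and falls alike, and their effect was not tested.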
